A study of Mus musculus with 16 samples.

Results

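The nuclear-encoded genes of oxidative phosphorylation were described in brain samples labelled as sorted microglia, from mice with experimental autoimmune encephalomyelitis (EAE), a mouse model of multiple sclerosis. Neuronal, astrocyte and oligodendrocyte markers stood above microglial markers in summed FPKM in every library, as given below. The values are thus those of the material sequenced and cannot be read as those of microglia. Members were the genes whose symbol began with Nduf, Uqcr or Atp5, was Sdha to Sdhd, or began with Cox4 to Cox8. This rule, which uses names and no measured value, found 92 of the 21878 genes in the deposited tables. By textbook roles, 7 were core and 29 were accessory subunits of complex I, 7 were complex I assembly factors, 4 belonged to complex II and 8 to complex III. Another 12 were ubiquitous genes and 8 were tissue isoforms of complex IV, and 15 were subunits of complex V. The 12 include Cox7a2l, a supercomplex factor related to the subunit Cox7a2. Atp5s and Atp5sl carry an Atp5 name but are not subunits of the enzyme, and Ndufa4 and Ndufa4l2 were counted with complex IV, to which the NDUFA4 protein belongs.

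All mice were female wild-type C57BL/6 mice, 8 weeks old at induction. The 8 EAE mice were immunized with a peptide of myelin oligodendrocyte glycoprotein (MOG) in complete Freund's adjuvant and received pertussis toxin, 200 ng by intraperitoneal injection on days 0, 2 and 7. The 8 PBS-treated mice received phosphate-buffered saline. By the labels and methods, brains were taken at peak disease on day 14 and cells were sorted as CD11b+/CD45int microglia after a Percoll gradient. After removal of ribosomal RNA, 1 stranded total RNA library was sequenced per mouse. Libraries are named EAE 1 to EAE 8 and PBS 1 to PBS 8.

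Oxidative phosphorylation takes place in the inner mitochondrial membrane. Complexes I and II pass electrons from NADH and succinate to ubiquinone, complex III passes them to cytochrome c, and complex IV passes them to oxygen. Complexes I, III and IV pump protons as they do so, and complex V, the ATP synthase, uses the returning protons to make ATP. Several subunits of complexes I, III, IV and V are encoded by mitochondrial DNA, and all 4 subunits of complex II are nuclear. In microglia, a shift between oxidative phosphorylation and glycolysis is widely used as a sign of the activation state.

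Nuclear genes of these complexes are known for short promoters that bind NRF-1, GABP and YY1. Promoter sequences from RefSeq (GRCm38.p6), 250 bases before to 50 after each start site, were matched for 73 members. The sequences below show 100 bases upstream of the 2 members that passed the test, and stretches from 3 members with the NRF-1 core GCGCATGCG. Capitals mark matches, on either strand, to this core or to the core with its sixth base free, and overlapping matches run together. No base shown lies in an annotated exon. The windows are chr10:128083173-128083272 on the plus strand for Atp5b, chr16:91931688-91931787 on the minus strand for Atp5o, chr5:115349040-115349129 on the minus strand for Cox6a1, chr17:56717693-56717752 on the plus strand for Ndufa11 and chr4:24897961-24898050 on the plus strand for Ndufaf4.
Atp5b: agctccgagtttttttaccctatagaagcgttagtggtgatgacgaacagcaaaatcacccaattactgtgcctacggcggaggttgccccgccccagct
Atp5o: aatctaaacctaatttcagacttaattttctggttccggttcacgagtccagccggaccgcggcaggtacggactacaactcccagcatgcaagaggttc
Cox6a1: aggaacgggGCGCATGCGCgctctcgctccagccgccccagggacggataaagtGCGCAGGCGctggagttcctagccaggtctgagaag
Ndufa11: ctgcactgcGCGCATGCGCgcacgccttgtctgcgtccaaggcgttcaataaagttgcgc
Ndufaf4: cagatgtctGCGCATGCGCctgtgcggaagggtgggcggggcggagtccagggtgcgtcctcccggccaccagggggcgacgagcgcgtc

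The core GCGCATGCG, searched on both strands, was found in 10 of the 73 member promoters (13.7%) and in 2.72% of 16275 promoters of all genes. With its sixth base free, GCGCANGCG was found in 22 member promoters (30.1%) and in 9.99% of all, and these include every match to the core. The GABP core CCGGAAGT was found in 5 member promoters (6.85%) and in 5.81% of all. The YY1 core AAGATGGCG was found in 7 (9.59%) and in 2.24% of all. The promoter of Atp5b held neither form of the NRF-1 core, and that of Atp5o held only the form with a free base, after the start site. These matches describe letters in a window and not binding.

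Total counts were 24587443 to 30244215 in EAE and 26031889 to 34184576 in PBS libraries. GENCODE M21 (GRCm38) placed 91 of the 92 members on 19 chromosomes, and 40 of these genes overlapped another gene, 32 of them on the opposite strand. The median transcript length, computed from counts and FPKM, was 790 bp for members and 3279 bp for all genes tested. In all, 83 members had over 100 counts in every library. Mitochondrially encoded subunits have no line in the tables and were not analysed here. The labelled cell type was compared with marker genes. The summed FPKM of 15 neuronal markers was 1886 to 2282 in EAE and 2216 to 2467 in PBS libraries, and that of 17 microglial markers was 238 to 386 and 219 to 356. The summed FPKM of astrocyte and of oligodendrocyte markers also stood above that of microglial markers in every library, and no marker of these 4 lists was at 0 in any library.

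Members were spread over a wide range of levels. FPKM corrects a count for transcript length and sequencing depth, and it was used to compare levels between genes. The highest mean levels in PBS-treated mice were those of Cox4i1 (441 FPKM), Cox8a (370.4 FPKM), Atp5b (313 FPKM), Cox6a1 (239.7 FPKM) and Atp5a1 (227 FPKM). Among the core subunits of complex I, Ndufs8 was lowest at 29.3 FPKM. The tissue isoforms of complex IV were at 6.46 FPKM or below.

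Most members had a fitted difference below 0 of small size, and 2 passed the test. Of the 91 members tested, 86 had a fitted log2 fold change (log2FC) below 0, against 47.3% of the 17885 genes tested. The median log2FC over members was -0.13, that is 8.66% lower, and the median over all genes was 0.01. The edgeR quasi-likelihood test with Benjamini-Hochberg adjustment called 2 members lower, Atp5b and Atp5o, where 1.76% of all genes were called lower. It called 0 members higher, where 0.66% of all genes were, and 0 members passed the study's added threshold of |log2FC| over 1, which 0.117% of all genes passed. At an unadjusted p under 0.05, 32 members were lower (9.52% of all genes) and 0 were higher (7.92%). DESeq2 called 5 members lower, where 3.37% of all genes were, and 0 higher. The share of members called by edgeR was thus close to the background. The FPKM ranges of the groups overlapped for all 92 members, and 0.263% of all genes had ranges that did not.

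**Figure D1:**
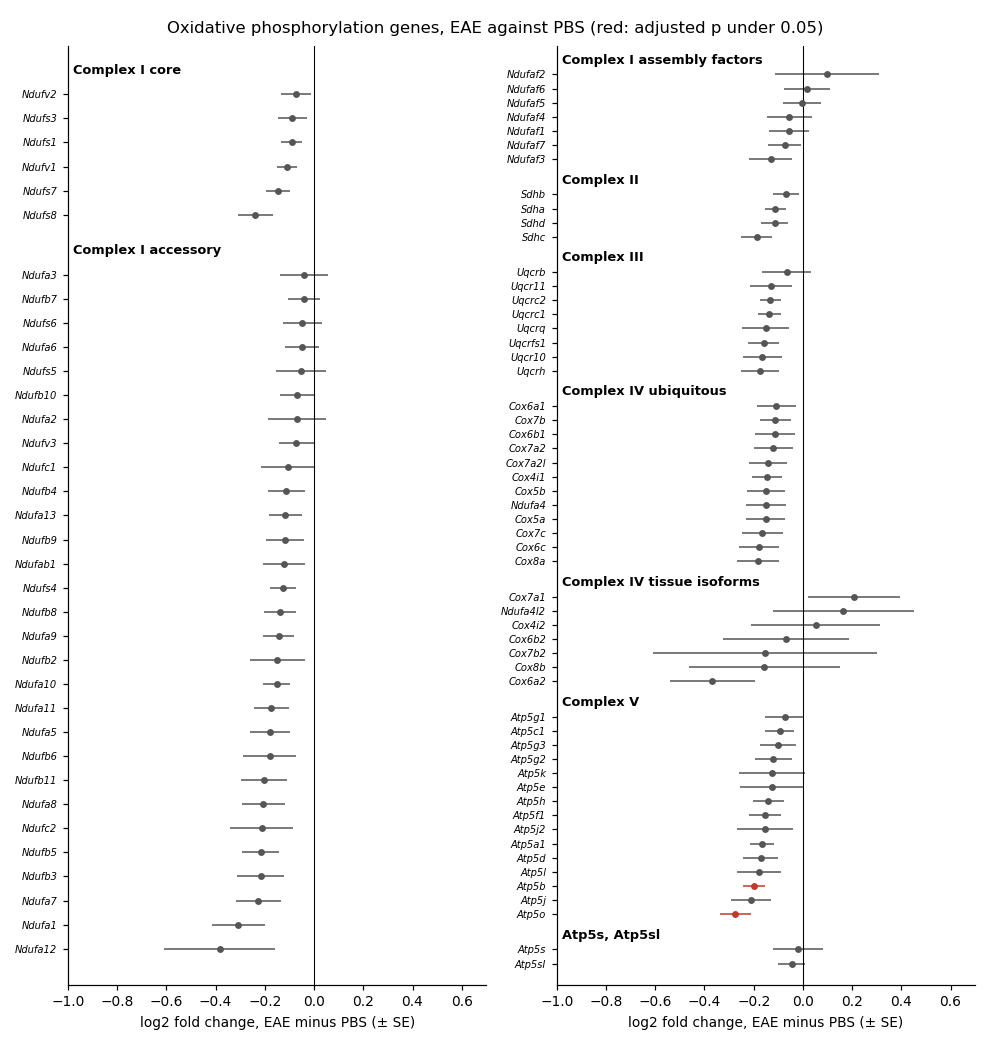
The log2 fold change of 90 of the 91 members tested (EAE minus PBS, x axis) is shown with its standard error as a bar, grouped by complex. Points in red, Atp5b and Atp5o, had an adjusted p under 0.05, and 85 of the 90 points lie left of 0.

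Complex V contains both members that edgeR called lower. Atp5b encodes the catalytic beta subunit of the F1 head. Its level was 262 FPKM in the lowest, 283 in the median and 315 in the highest EAE library, and 295, 312 and 333 FPKM in PBS libraries. In 7 of 8 EAE mice it was below every PBS-treated mouse, and only EAE 4 lay within the PBS range. Atp5b fell by 0.20 on the log2 scale (SE 0.04, edgeR adjusted p = 0.0205).

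Atp5o encodes OSCP, the subunit that ties the F1 head to the peripheral stalk. Its level was 72.2 FPKM in the lowest, 84.5 in the median and 98.3 in the highest EAE library, and 89.9, 99.0 and 106 FPKM in PBS libraries. In 6 of 8 EAE mice it was below every PBS-treated mouse, with EAE 4 and EAE 5 inside the PBS range. Atp5o fell by 0.27 on the log2 scale (SE 0.06, edgeR adjusted p = 0.0265). GENCODE gives a second entry with the symbol Atp5o, chr16:91684398-91926982, that overlaps the gene at chr16:91925214-91931687 on the same strand. The deposited tables hold 1 line with this symbol.

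Both calls depended on scaling and on single libraries. With library totals in place of TMM factors, a scaling that moves the median log2FC of all genes to 0.06, the adjusted p from edgeR was 0.0683 for Atp5b and 0.0654 for Atp5o. Atp5b was called in 14 and Atp5o in 11 of the 16 fits that left out 1 library, with highest adjusted p values of 0.0566 without EAE 2 and 0.0663 without PBS 2 in edgeR.

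**Figure D2:**
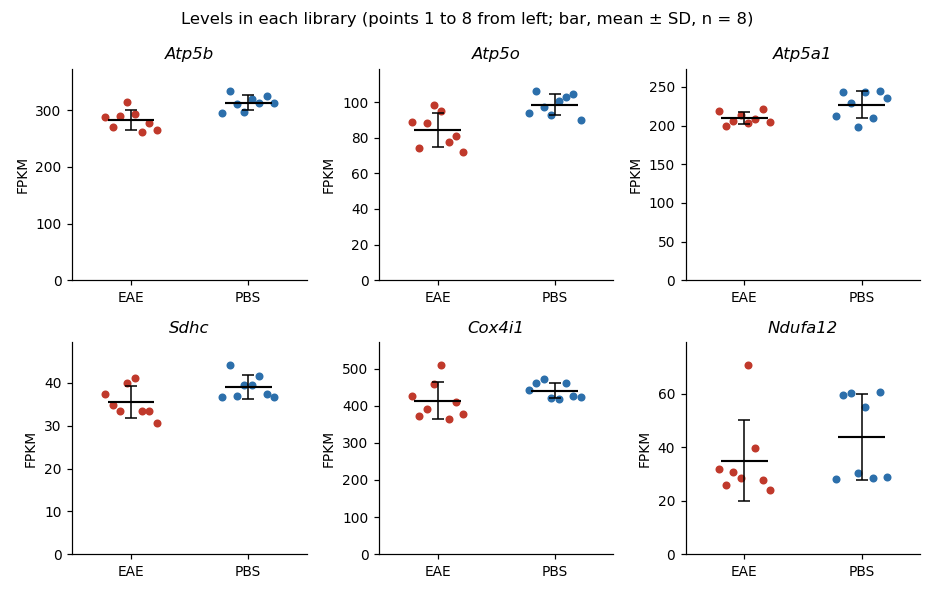
FPKM in each library (y axis, from 0) is shown for Atp5b, Atp5o, Atp5a1, Sdhc, Cox4i1 and Ndufa12, with EAE in red and PBS in blue and bars for mean ± SD (n = 8). The groups overlap in every panel, and Ndufa12 has 5 libraries above 50 FPKM, EAE 5 and PBS 2, 3, 5 and 7.

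The remaining 13 subunits of complex V did not pass the edgeR test, and all 13 had a log2FC below 0. Atp5a1, the alpha subunit of the F1 head, was at 209 ± 7.78 FPKM (SD, n = 8) in EAE and 227 ± 17.6 FPKM in PBS-treated mice. Its log2FC was -0.17 (SE 0.05, edgeR adjusted p = 0.0726, DESeq2 adjusted p = 0.0286), so that DESeq2 called it lower, and all 8 EAE libraries were below the PBS median. Atp5j, a part of the peripheral stalk, had a log2FC of -0.21 with all 8 EAE libraries below the PBS median as well. The 3 genes for the c subunit of the membrane ring, Atp5g1, Atp5g2 and Atp5g3, encode the same mature protein. Their log2FC values were -0.07, -0.12 and -0.10. Atp5g1 made up 25.3% ± 1.75 (SD, n = 8) of their summed FPKM in EAE and 24.8% ± 1.07 in PBS-treated mice, Atp5g2 32.3% ± 1.63 and 32.8% ± 1.74, and Atp5g3 42.4% ± 1.93 and 42.4% ± 1.64. The differences between groups in these shares were smaller than the SD. Atp5s and Atp5sl had log2FC values of -0.02 and -0.05.

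In complex I, 0 of 43 genes passed the edgeR test, and DESeq2 called 1 lower, Ndufs8. All 7 core subunits, which carry the flavin and iron-sulphur clusters or form the ubiquinone-binding part, had a log2FC below 0, with a median of -0.09. The lowest was that of Ndufs8, an iron-sulphur protein, at -0.24 (SE 0.07, edgeR adjusted p = 0.0731, DESeq2 adjusted p = 0.0271). Ndufs8 was at 22.2 FPKM in the lowest, 24.6 in the median and 30.7 in the highest EAE library, and at 27.2, 28.9 and 33.1 FPKM in PBS libraries. In 6 of 8 EAE mice it was below every PBS-treated mouse.

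All 29 accessory subunits of complex I had a log2FC below 0, with a median of -0.14, and 11 had an unadjusted p under 0.05. Ndufb9, the most abundant of them, was at 99.2 ± 14.6 FPKM (SD, n = 8) in EAE and 103.8 ± 8.46 FPKM in PBS-treated mice. Ndufa12 had the lowest log2FC of all members, -0.38, with an SE of 0.23 and an edgeR adjusted p of 0.401. Without EAE 5 its log2FC was -0.61 and did not pass either (edgeR adjusted p = 0.0649). Its level was 24.1 FPKM in the lowest, 29.6 in the median and 70.7 in the highest EAE library, and 28.0, 42.7 and 60.6 FPKM in PBS libraries. EAE 5, PBS 2, PBS 3, PBS 5 and PBS 7 lay between 55.0 and 70.7 FPKM and the other 11 libraries between 24.1 and 39.6 FPKM, so that its spread was within groups. The assembly factors Ndufaf1 to Ndufaf7, which help build the complex and are not part of it, had 5 of 7 log2FC values below 0 and a median of -0.05. Ndufaf3, the most abundant of them, was at 11.7 ± 1.78 FPKM in EAE and 12.3 ± 0.803 FPKM in PBS-treated mice.

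Complex II is also an enzyme of the citric acid cycle. Its 4 genes had log2FC values of -0.11 for Sdha, the flavoprotein, -0.07 for Sdhb, the iron-sulphur subunit, and -0.19 and -0.11 for the membrane anchors Sdhc and Sdhd. Sdhc was at 30.7 FPKM in the lowest, 34.2 in the median and 41.2 in the highest EAE library, and at 36.6, 38.5 and 44.2 FPKM in PBS libraries. In 5 of 8 EAE mice it was below every PBS-treated mouse (SE 0.06, edgeR adjusted p = 0.118). Sdha was at 96.2 ± 4.23 FPKM (SD, n = 8) in EAE and 100.3 ± 4.59 FPKM in PBS-treated mice, with all 8 EAE libraries below the PBS median.

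All 8 genes of complex III had a log2FC below 0, with a median of -0.14, and 5 had an unadjusted p under 0.05 in edgeR, where 0 passed the adjusted test. Uqcrc2, a core protein, had the smallest p of the complex, with a log2FC of -0.13 (SE 0.04, edgeR adjusted p = 0.0979), and DESeq2 called it lower (adjusted p = 0.0334). It was at 40.3 ± 1.91 FPKM in EAE and 42.6 ± 1.55 FPKM in PBS-treated mice (n = 8 each). Uqcrc1, the other core protein, was at 89.3 ± 4.90 FPKM in EAE and 94.7 ± 5.98 FPKM in PBS-treated mice (n = 8 each). Uqcrh, the hinge protein, had the lowest log2FC of the complex, -0.18 (SE 0.08, edgeR adjusted p = 0.239). Uqcrfs1, the Rieske iron-sulphur protein, had a log2FC of -0.16 and was below every PBS-treated mouse in 6 of 8 EAE mice.

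The 12 ubiquitous genes of complex IV all had a log2FC below 0, between -0.18 for Cox8a and -0.11 for Cox6a1, and 0 passed the adjusted test in edgeR or in DESeq2. Cox4i1, a subunit involved in the regulation of the enzyme by ATP, was at 364 FPKM in the lowest, 400.1 in the median and 509.6 in the highest EAE library. In PBS libraries it was at 419.5, 435 and 473 FPKM. In 5 of 8 EAE mice it was below every PBS-treated mouse, and the highest EAE library was above them all (log2FC -0.14, SE 0.06, edgeR adjusted p = 0.223).

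The tissue isoforms replace ubiquitous subunits of complex IV in heart and skeletal muscle, lung, testis or hypoxic cells. They were at low levels, and 4 of the 7 tested had a log2FC below 0. Cox7a1 had the highest log2FC of all members, 0.21 (SE 0.19, edgeR adjusted p = 0.6075), and Cox6a2 was at -0.37 (SE 0.17, adjusted p = 0.271). Cox7a1 was at 6.02% ± 1.24 (SD, n = 8) of the FPKM of its partner Cox7a2 in EAE and at 4.83% ± 0.978 in PBS-treated mice. This was the smallest p among 6 isoform ratios (exact permutation test over all divisions of the 16 libraries, two-sided, p = 0.0741, adjusted p = 0.445).

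Cox6a2 was at 2.30% ± 0.795 of Cox6a1 in EAE and 2.70% ± 0.532 in PBS-treated mice (exact permutation p = 0.178, adjusted p = 0.533). The ratio of Ndufa4l2, a gene known for its induction in hypoxia, to Ndufa4 was 0.663% ± 0.241 and 0.525% ± 0.177 (exact permutation p = 0.303, adjusted p = 0.605). The ratio of Cox4i2 to Cox4i1 was 0.0968% ± 0.0410 and 0.0823% ± 0.0212 (exact permutation p = 0.554, adjusted p = 0.830). Differences of these sizes were thus within the spread between libraries. The ratios of Cox6b2 to Cox6b1 and of Cox8b to Cox8a, isoforms of testis and of muscle, differed by 0.03 and 0.01 on the log2 scale (exact permutation p = 0.903 and 0.979, adjusted p = 0.979 for both). Cox7b2 was at 0.380 ± 0.245 FPKM in EAE and 0.414 ± 0.185 FPKM in PBS-treated mice. Cox8c had 3 counts in EAE 3 and 1 count in PBS 8, was at 0 in the other 14 libraries and was not tested.

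**Figure D3:**
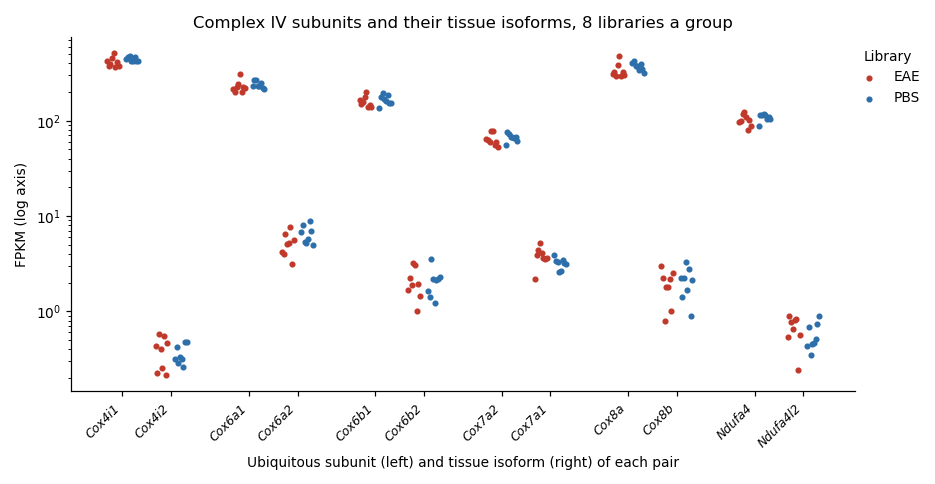
FPKM of 6 ubiquitous complex IV subunits and their tissue isoforms is shown in each of 8 EAE (red) and 8 PBS (blue) libraries on a log axis. Each isoform lies well below its partner, the nearest being Cox7a1 at 6.02% of Cox7a2 in EAE mice, and the groups overlap for every gene.

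The level of the members as a set differed from library to library, and not every class followed the set. For each library the median log2 deviation of the members from the PBS mean was computed. It was 0.07 in EAE 4 and 0.02 in EAE 5, and between -0.28 and -0.11 in the other 6 EAE libraries. It was between -0.14 and 0.12 in PBS libraries, with PBS 1 lowest and PBS 2 highest. The complex I assembly factors alone were at -0.09 in PBS 2 and at 0.22, their highest value, in PBS 4. Astrocyte markers, measured the same way, were at 0.12 in EAE 4, at 0.22 in EAE 5 and between -0.44 and -0.27 in the other 6 EAE libraries. Oligodendrocyte markers were at 0.09 and 0.12 in EAE 4 and EAE 5, their highest EAE libraries, and at 0.18 in PBS 2 and PBS 6. Neuronal markers were at -0.09 in EAE 4 and at -0.32 in EAE 5, their lowest library. Microglial markers were highest in EAE 4, at 0.55, and neutrophil markers had their lowest EAE value there, 0.27. Endothelial markers and those of pericytes and smooth muscle were highest in EAE 5, at 0.37 and 0.30. The part of these cells in the members' values was not tested. EAE 4 was the highest EAE library for 41 members and EAE 5 for 29, and EAE 6 was the lowest for 37 and EAE 8 for 30. The summed FPKM of all members was 4420 to 5846, with a median of 4799, in EAE and 4930 to 5716, with a median of 5237, in PBS libraries. In each class of subunits plotted, PBS 2 was the highest PBS library and EAE 6 or EAE 8 the lowest EAE library. PBS 1 was the lowest PBS library except in the complex I core and in complex III, where PBS 8 was. Complex II was the only class of subunits plotted for which all 8 EAE libraries lay below 0, at -0.21 to -0.01.

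**Figure D4:**
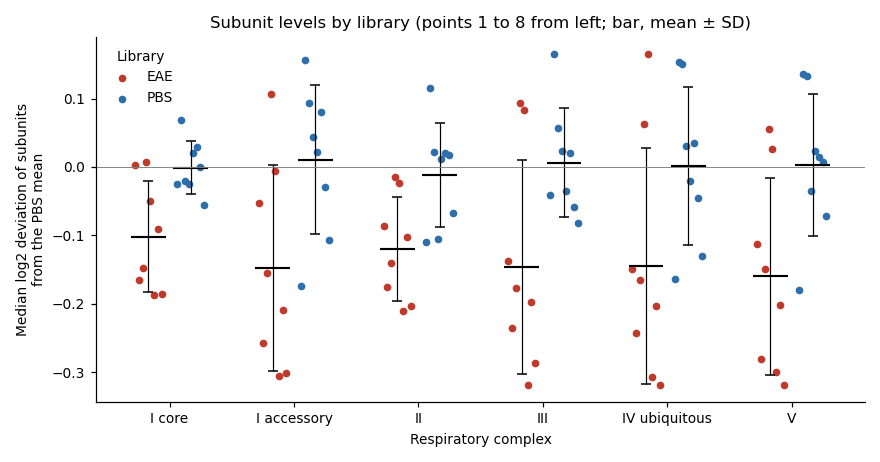
For each complex and library, the y axis gives the median log2 deviation of the subunits from their PBS mean, with EAE in red, PBS in blue and bars for mean ± SD over 8 libraries. EAE 4 and EAE 5 are the highest EAE libraries in each class but the complex I core, where EAE 4 and EAE 1 are, and the other EAE libraries lie mostly below 0.

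The number of members called depended on these libraries. Without EAE 4, 9 members (9.89%) were called lower, where 4.57% of all genes were, and without EAE 5, 9 (9.89%) were, where 3.42% were. Without EAE 2, 0 were, where 0.594% of all genes were, and without PBS 2, 0 were, where 0.583% were. The counts of 0 are near the background, and the shares without EAE 4 or without EAE 5 stood above it, a difference that was not tested. The median log2FC over members was between -0.16 and -0.11 in the 16 fits that left out 1 library. Libraries EAE 6, 7 and 8 and PBS 5, 7 and 8 were more alike over all genes than the rest: the median absolute log2 difference was 0.0510 to 0.0566 between these EAE libraries and 0.0813 to 0.195 between other EAE pairs. In PBS libraries it was 0.0480 to 0.0581 and 0.0911 to 0.180. No source gives a batch.

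Within these 6 libraries, 55 members (60.4%) were called lower by edgeR, where 13.1% of all genes were, and the median log2FC was -0.20. These libraries were set apart for being alike, which makes the spread within groups small by choice. The p values and calls within them are thus too favourable and are given as description only. By complex, 5 of 7 core and 16 of 29 accessory subunits of complex I, 2 of 4 genes of complex II, 7 of 8 of complex III, 11 of 12 ubiquitous genes of complex IV and 13 of 15 of complex V were lower. Atp5b had a log2FC of -0.28 and Atp5o of -0.38. In the other 10 libraries, 0 members were called, where 0.0286% of all genes were called lower, 7 members were lower at an unadjusted p under 0.05, and the median log2FC was -0.10. The difference between the sets was tested in edgeR as an interaction of set and condition: 0 members passed at an adjusted p under 0.05, with a lowest adjusted p of 0.397, and 3 had an unadjusted p under 0.05, against 8.03% of all genes. The difference was below 0 for 77 of 91 members, with a median of -0.10 against 0.00 for all genes, and 11 of all genes were called. With a term for the set in the model, 4 members were called lower, Atp5b, Atp5o, Atp5a1 and Ndufs8, where 2.94% of all genes were. The set was chosen from these same data, so the interaction and the term are also given as description only.

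Members were compared with genes of like level and length. Above a log2 CPM (counts scaled to library size) of 5, 46 of 46 members had a log2FC below 0, with a median of -0.14, and so did 59.1% of 6437 other genes, with a median of -0.03. Of the 98 other genes that also had transcripts under 1000 bp, 96.9% were below 0, with a median of -0.10, and 48 of them were ribosomal protein genes with a median of -0.10. The 50 that were not had a median of -0.13, with 48 of 50 below 0. The 20 members within these limits had a median of -0.15. When the trend on transcript length was removed from each library, the members' median was -0.07, 78 of 91 were below 0, and Atp5b (adjusted p = 0.0246 in edgeR) and Atp5o (adjusted p = 0.0132) were the only members called. Abundant short transcripts outside the members thus also stood mostly below 0, and the part of length and level in the members' values was not tested beyond this fit.

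**Figure D5:**
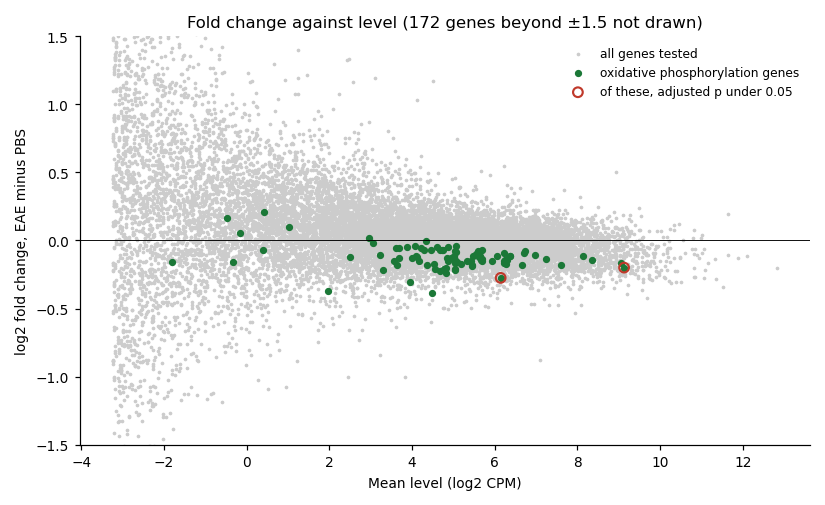
The log2 fold change (EAE minus PBS, y axis) is plotted against the mean level in log2 CPM for all genes tested (grey), the 91 members (green) and the members with an adjusted p under 0.05 (red rings). The 46 members above 5 on the x axis all lie below 0, and 172 genes beyond ±1.5, none of them a member, are not drawn.

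Marker genes of 7 cell types were read beside the members, and the lists differed in direction. Of 15 neuronal markers, 14 had a log2FC below 0, with a median of -0.12, and Syt1, Syp, Nefh and Gad1 were called lower. Of 9 astrocyte markers, 8 were below 0, with a median of -0.21, and Gfap was called higher. The summed FPKM of astrocyte markers was 1186 to 1810 in EAE and 1383 to 1643 in PBS libraries. Oligodendrocyte markers had 7 of 9 below 0, with a median of -0.13, and a summed FPKM of 919 to 1291 and 1008 to 1237. Of 17 microglial markers, 16 were above 0, with a median of 0.17, and Trem2 and Itgam were called higher. All 11 neutrophil markers were above 0, 4 were called higher, and their summed FPKM was 23.3 to 64.5 and 9.58 to 24.4, with Ly6g, Ltf, Elane and Mmp8 at 0 in some libraries. Of 8 endothelial markers 4, and of 8 markers of pericytes and smooth muscle 5, were below 0, and none was called. The part of these cell types in the members' values was not tested, and in bulk samples fewer cells of a type and less RNA per cell cannot be told apart.

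Other genes of energy metabolism were read from lists of textbook pathway genes. In glycolysis, 17 of 19 genes had a log2FC below 0, with a median of -0.12. There 2 were called lower, where 1.76% of all genes were. Aldoc and Eno2 are in this list and also in those of astrocyte and neuronal markers. Pgam1, phosphoglycerate mutase, fell by 0.26 on the log2 scale (SE 0.05, edgeR adjusted p = 0.00717), from 49.9 ± 3.11 FPKM (SD, n = 8) in PBS-treated mice to 43.0 ± 2.32 FPKM in EAE mice. Ldhb, the lactate dehydrogenase subunit that predominates in heart, fell by 0.26 (SE 0.05, edgeR adjusted p = 0.00790), from 192 ± 7.99 to 166 ± 12.8 FPKM. Ldha, its partner subunit, had a log2FC of -0.01.

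In the citric acid cycle and pyruvate dehydrogenase, 16 of 17 genes were below 0, with a median of -0.11. There 0 were called, and 10 had an unadjusted p under 0.05, Mdh2 (log2FC -0.13, edgeR adjusted p = 0.118) and Sucla2 (-0.17, adjusted p = 0.145) having the smallest. All 6 carriers of adenine nucleotides and phosphate and their outer membrane channels were below 0, with a median of -0.10, and 0 were called. The smallest p among them was that of Slc25a4, the adenine nucleotide translocator of heart and muscle (log2FC -0.20, edgeR adjusted p = 0.0721), followed by Vdac1, an outer membrane channel (-0.10, adjusted p = 0.261). Cycs and Cyc1, cytochrome c and cytochrome c1, had log2FC values of -0.12 and -0.08. Of 4 uncoupling protein genes 3 were below 0 and 0 were called, Ucp3 having a log2FC of -0.38 (edgeR adjusted p = 0.0807) and Slc25a14 of -0.14 (adjusted p = 0.404).

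The genes that build or regulate the machinery stood nearer 0. Of 38 further assembly factors tested, 23 were below 0, with a median of -0.05, and 0 were called. The smallest p values were those of Coa5 (log2FC -0.14, edgeR adjusted p = 0.234) and of Cox17, a copper chaperone for complex IV (-0.26, adjusted p = 0.2595). Of 77 mitochondrial ribosomal protein genes, 52 were below 0, with a median of -0.04, and 0 were called. Of 14 regulators of mitochondrial biogenesis, 7 were below 0, with a median of 0.00, and 0 were called. Pprc1, a coactivator related to PGC-1, had a log2FC of 0.20 (edgeR adjusted p = 0.236), and Nrf1, the factor that binds the core shown above, of 0.10 (adjusted p = 0.434). The lists were not matched to the subunits in level or length, and differences between the lists were not tested.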

How the data were processed

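Per the labels and methods, the authors aligned reads to GRCm38 with HISAT2 2.1.0, counted them per gene with HTSeq 0.11.2 and deposited raw counts and FPKM values, which are scaled by transcript length and library size. The strand setting and the treatment of reads mapping to several genes are not given in the sources used here. Counts were tested with edgeR 4.0.16 (R 4.3.3) over all 17885 genes with a total of at least 16 counts, using TMM factors, the quasi-likelihood F test and Benjamini-Hochberg adjustment, with a call at an adjusted p under 0.05. The SE is |log2FC| divided by the square root of F. FPKM is not TMM-scaled, so ratios of FPKM differ from log2FC. Isoform ratios were log2((FPKM + 0.01) ratios), tested by exact permutation over 8 and 8 libraries. limma 3.58.1 and DESeq2 1.42.0 were alternatives. Members, lists and the set of libraries most alike were chosen with earlier results of these data known. Named were, per complex, the called members, the most abundant one and the one with the largest change at a mean FPKM of at least 1, all complex II genes, the isoform pairs and the c subunits. In each other list, the called genes or the 2 with the smallest p were named. Ndufs8, Atp5j, Atp5a1, Uqcrc2, Uqcrfs1 and Ldha were named after their values were seen. The single values of 1 core subunit of complex I are not reported here. Each mouse gave 1 library. With 8 libraries a group, the median SE over members was 0.08 on the log2 scale.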

Additional observations from a re-analysis of the deposited data

Results flagged for a closer look

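For each named gene, the highest and the lowest of the 8 libraries of each group were compared with the rest by Dixon's test, which chance passes in about 1 of 20 groups, over 56 groups of values. EAE 5 was the highest EAE library of Ndufa12 at 70.7 FPKM, with the next at 39.6. It was also the highest of Ndufb9 at 132 FPKM, with the next at 106, and of Cox6a1 at 310.05 FPKM, with the next at 244. EAE 4 was the highest of Atp5g1 at 49.1 FPKM, with the next at 40.3. PBS 1 was the lowest PBS library of Ndufa4 at 87.1 FPKM, with the next at 104. PBS 3 was the highest of Cox6b2 at 3.58 FPKM, from 59 counts, with the next at 2.30. Cox8c was at 0.256 FPKM in EAE 3, from 3 counts, and at 0.0681 FPKM in PBS 8, from 1 count, and every other library was at 0. The cause of these values was not tested.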

How the results depend on the processing

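Of the members, 2 were called lower by edgeR with TMM factors, and also with size factors of DESeq2, upper-quartile factors, no filter but 1 count, filterByExpr, robust estimation or the length trend removed. DESeq2 called 5 and limma on log2(FPKM + 0.1) or log2(FPKM + 1) 0. The model with a term for the libraries most alike, a set chosen from these same data, gave 4. These 6 libraries alone, a set with a small spread by choice, gave 55 and the others 0. Library totals without TMM factors, chosen after seeing the data, gave 0. Leaving out 1 library gave 0 to 9. The members' median log2FC ranged from -0.20 to -0.07 over all settings, and relative to the median of all genes it was -0.14 under TMM factors and under library totals. The counts called higher or past the fold threshold were 0 in all settings run. Over the pathway lists, 2 genes were called with edgeR, 8 with DESeq2, 33 within the libraries most alike, 0 within the others and 2 to 9 without 1 library. Of all genes, 1.76% were called lower with edgeR, 3.37% with DESeq2, 13.1% within the libraries most alike and 0.0286% within the others.

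Same-numbered EAE and PBS libraries correlated from -0.24 to 0.60 in their deviations from the group means. Of the 8 numbers, 2 matched their own partner best, number 4 (0.60) and number 8 (0.31). These correlations cannot settle whether the replicate numbers pair the libraries. With the number as a replicate block, 2 members were lower and the median log2FC was -0.14.

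Some low isoforms, none of them called, changed sign. Within the libraries most alike the log2FC was -0.075 for Cox4i2, 0.25 for Cox8b, -0.40 for Ndufa4l2 and 0.47 for Cox7b2, and within the others it was 0.072 for Cox6b2. Without 1 library it ranged from -0.044 to 0.14 for Cox4i2, from -0.18 to 0.089 for Cox6b2 and from -0.46 to 0.0027 for Cox7b2. The log2 differences of isoform ratios ranged without 1 library from -0.39 to -0.18 for Cox6a2, 0.26 to 0.42 for Cox7a1, -0.14 to 0.15 for Cox8b, 0.19 to 0.49 for Ndufa4l2 and -0.071 to 0.13 for Cox6b2. Unadjusted exact permutation p values came under 0.05 for Cox7a1 without EAE 1 or PBS 1, for Cox6a2 without EAE 6 and for Ndufa4l2 without EAE 7. The cause of these changes was not tested.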
